A study of Mus musculus with 18 samples.

Results

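The Mcl1 block is a stretch of mouse chromosome 3 in which ATAC-seq counts stood far above those of normal lymphocytes in 3 of 9 T-cell lymphomas. It holds every deposited peak whose start lies from 94900000 to 96500000 on the mm10 build, a rule that gave 781 of the 61224 peaks of the larger deposited table and 781 of the 3678 peaks on chromosome 3. The interval was chosen on measured values of these lymphomas, so the values of the lymphomas in it are given as a description, and their difference from normal cells is not tested. Accessibility was measured by ATAC-seq, in which the Tn5 transposase cuts and tags open chromatin, and each value is a count of reads in a peak of 500 bp. The 9 mPTCL libraries (murine peripheral T-cell lymphoma, genotype p53KO, strain C57BL/6) came from lymphomas that formed in CD3KO C57BL/6 mice given T cells without p53, and were sorted from liver with no markers named. The 9 normal libraries came from wild-type C57BL/6 mice, 3 for each of 3 cell types. Spleen CD3+ thy1+ cells made up the T group. NKT cells were liver cells with CD3 that also bound the alphaGalCer-loaded CD1d tetramer, and their titles carry the letters Sp. NK cells were CD27- CD11b+ cells of the spleen. All groups share the C57BL/6 strain, and the labels give no age and no treatment. Genotype and sort differ together between lymphomas and normal cells, and the tissue differs as well against T and NK cells. Lymphomas are numbered 1 to 9 in accession order only.

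Mcl1 encodes a member of the Bcl2 family that keeps cells alive. The protein binds the death effectors Bak and Bax and the BH3-only proteins that trigger them, it turns over fast, and T cells and NK cells need it to survive. Genes of many other kinds lie beside it, among them Arnt, the partner of the aryl hydrocarbon receptor and of the hypoxia factors, Setdb1, which methylates lysine 9 of histone H3, the cathepsin genes Ctss and Ctsk, and a cluster of replication-dependent histone genes. ATAC-seq counts at a locus depend both on how open it is and on how many copies of it a cell carries, and in these counts the 2 cannot be told apart.

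The promoters on which the results turn are shown first, as the 250 bases before the annotated transcription start, from RefSeq on GRCm38.p6, the assembly behind mm10. Mcl1 names the block, and Golph3l and Ensa hold the 2 promoter peaks with the highest mean CPM over all 18 libraries, inside the stretch where mPTCL 1, mPTCL 2 and mPTCL 5 were all high. Setdb1 lay outside the interval of mPTCL 1 but inside those of mPTCL 2 and mPTCL 5, and Zfp687 lies near the left limit. Capitals mark the CCAAT box bound by NF-Y, on either strand.
Mcl1, chr3:95658471-95658720, plus strand: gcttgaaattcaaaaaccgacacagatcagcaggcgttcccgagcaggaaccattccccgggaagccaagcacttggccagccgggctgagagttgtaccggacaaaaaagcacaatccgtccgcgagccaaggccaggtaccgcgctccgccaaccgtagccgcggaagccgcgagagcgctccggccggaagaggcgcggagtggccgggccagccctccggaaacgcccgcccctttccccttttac
Golph3l, chr3:95588684-95588933, plus strand: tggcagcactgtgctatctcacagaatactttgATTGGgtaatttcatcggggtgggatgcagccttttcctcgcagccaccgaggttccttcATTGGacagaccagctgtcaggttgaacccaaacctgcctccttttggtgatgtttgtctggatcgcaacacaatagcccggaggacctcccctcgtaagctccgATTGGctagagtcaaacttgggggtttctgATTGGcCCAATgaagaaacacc
Ensa, chr3:95624730-95624979, plus strand: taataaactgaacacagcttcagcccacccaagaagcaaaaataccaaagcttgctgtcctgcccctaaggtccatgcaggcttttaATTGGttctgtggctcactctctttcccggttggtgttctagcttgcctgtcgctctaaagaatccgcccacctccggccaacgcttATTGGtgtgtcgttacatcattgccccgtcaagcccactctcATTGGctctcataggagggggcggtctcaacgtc
Setdb1, chr3:95357203-95357452, minus strand: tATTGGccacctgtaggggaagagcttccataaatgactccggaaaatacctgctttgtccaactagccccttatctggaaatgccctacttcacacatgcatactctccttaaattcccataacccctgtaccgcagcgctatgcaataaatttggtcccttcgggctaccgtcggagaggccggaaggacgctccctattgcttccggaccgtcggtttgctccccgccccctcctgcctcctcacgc
Zfp687, chr3:95015458-95015707, minus strand: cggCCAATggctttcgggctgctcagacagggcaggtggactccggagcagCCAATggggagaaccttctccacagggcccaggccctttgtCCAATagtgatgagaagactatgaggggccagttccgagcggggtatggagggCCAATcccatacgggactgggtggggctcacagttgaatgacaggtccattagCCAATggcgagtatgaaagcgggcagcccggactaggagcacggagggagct

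Each of these 5 windows overlaps a deposited promoter peak. The Mcl1 window held 0 CCAAT boxes and was 64.4% G or C. The windows of Golph3l and Zfp687 held 5 boxes each, that of Ensa 3 and that of Setdb1 1. RefSeq has another start for Zfp687, and its window, chr3:95015239-95015488, overlaps the same promoter peak and held 0 boxes. RefSeq windows of 300 bases, from 250 before to 50 after the start, were found for 60 of the 108 gene symbols of the block, as 70 windows. CCAAT occurred on either strand in 41.4% of these and in 37.4% of all 32851 promoter windows. CACGTG, the E box of Myc and of Arnt-type factors, occurred in 11.4% of the block windows against 7.15% of all windows. The core GCGCATGC of NRF1 sites occurred in 4.29% against 2.71%, CCGGAAGT of ETS factors in 1.43% against 3.89%, TGACGTCA of the cAMP response element in 1.43% against 1.79%, and TATAAA in 14.3% against 13.6%. These are counts of letters in a window, without a test, and no motif was held by most promoters of the block.

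Deposited peaks lay far closer together in the block than elsewhere on the chromosome. The block held 488 peaks per Mb, against a median of 18.5 and a maximum of 109 peaks per Mb in the other occupied stretches of 1 Mb on chromosome 3. Starts of neighbouring peaks were a median of 1160 bp apart in the block and 9390 bp apart on the rest of the chromosome. By the deposited classes, 184 peaks were promoter peaks and 597, or 76.4%, were of other classes, namely 224 intronic, 130 flanking, 99 exonic, 80 intergenic, 57 in 3' UTRs and 7 in 5' UTRs. Promoters made up 23.6% of the block against 32.7% of all peaks outside it, while 3' UTR peaks made up 7.3% against 3.01% and flanking peaks 16.6% against 9.22%. The peaks of the block were weak in normal cells, with a median of 30 counts summed over the 9 normal libraries against 187 counts for the peaks outside. The rule by which the authors called and merged peaks is not given in the sources used here, so its part in this density was not tested. In the smaller deposited table of 27727 peaks, the same limits held 76 peaks, of which 4 had the same interval as a peak of the larger table.

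**Figure D1:**
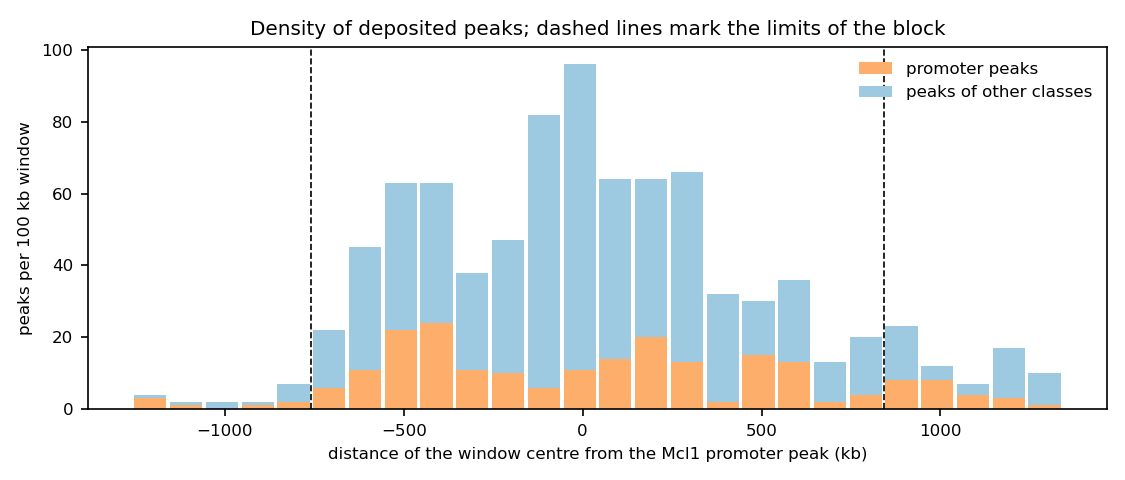
Number of deposited peaks (vertical axis) in windows of 100 kb against the distance of the window's centre from the main Mcl1 promoter peak in kb, with promoter peaks in orange and peaks of other classes in blue. The 16 windows between the dashed limits hold 13 to 96 peaks each, and the 10 windows beside them 2 to 23.

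Summed over the 781 peaks, 3 lymphomas stood apart. The block took 1.47% of all counts in mPTCL 1, 2.22% in mPTCL 2 and 1.9% in mPTCL 5. In mPTCL 3, 4, 6, 7, 8 and 9 it took 0.532%, 0.466%, 0.471%, 0.469%, 0.482% and 0.543%. The shares were 0.368%, 0.417% and 0.366% in T libraries, 0.374%, 0.365% and 0.378% in NKT libraries and 0.596%, 0.522% and 0.523% in NK libraries. The highest normal share was 0.596%, in NK 1, and mPTCL 1, mPTCL 2 and mPTCL 5 were each above 2 times that share. On the scale of the block level, the log2 of summed CPM (counts scaled by library size and TMM) minus its mean over the 9 normal libraries, mPTCL 1 stood at 1.70, mPTCL 2 at 2.16 and mPTCL 5 at 2.01. These are 3.26, 4.47 and 4.02 times the normal level. The other lymphomas, 3, 4, 6, 7, 8 and 9, stood at 0.24, -0.08, -0.02, -0.10, 0.00 and 0.23, and the normal libraries between -0.23 and 0.23. The rest of chromosome 3 was not high in these libraries, at -0.21 in mPTCL 1, -0.24 in mPTCL 2 and -0.24 in mPTCL 5. Over its 2897 peaks the other lymphomas ranged from -0.51 in mPTCL 6 to 0.27 in mPTCL 3. The 9 lymphomas averaged 0.68 with an SD of 0.97, against an SD of 0.14 over the 9 normal libraries.

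**Figure D2:**
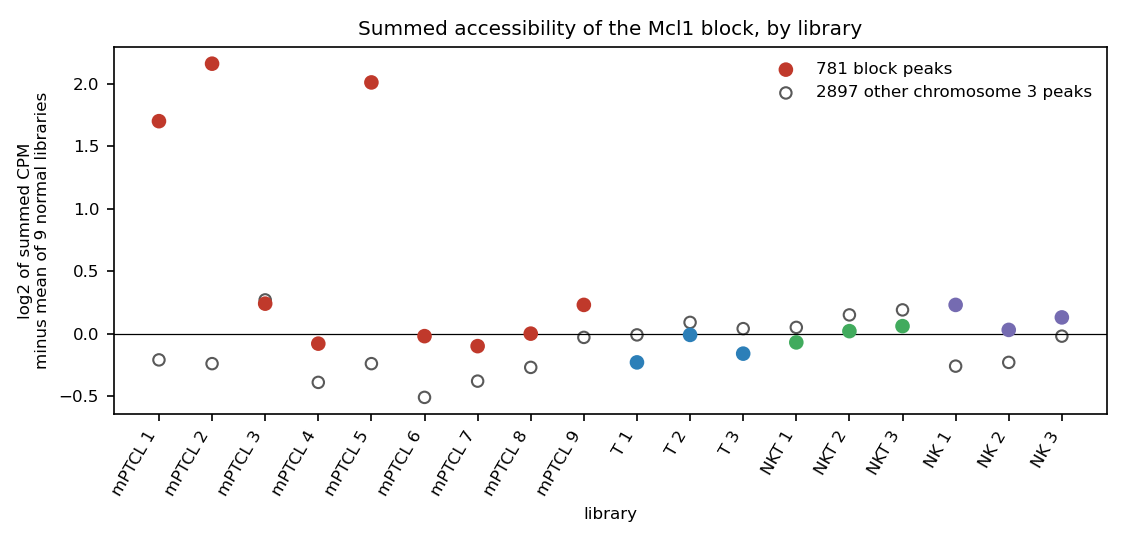
Block level of each library, as the log2 of summed CPM minus the mean of the 9 normal libraries (vertical axis), for the 781 block peaks (filled, coloured by group) and the other 2897 peaks of chromosome 3 (open). mPTCL 1, mPTCL 2 and mPTCL 5 sit at 1.70 to 2.16 while the other 6 lymphomas and the 9 normal libraries sit between -0.23 and 0.24.

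The same 3 lymphomas were high at most single peaks of the block. In mPTCL 2, 746 of the 781 peaks had at least 2 times the mean CPM of the normal libraries (prior count 2), against 22.3% of all 61224 peaks. In mPTCL 5 that number was 673, against 22.1% of all peaks, and in mPTCL 1 it was 483, against 16.1%. These counts are 95.5%, 86.2% and 61.8% of the block. The other lymphomas had fewer such peaks, with mPTCL 3 at 58 (16.5% of all peaks), mPTCL 4 at 90 (18.4%), mPTCL 6 at 69 (19.4%), mPTCL 7 at 63 (18.3%), mPTCL 8 at 178 (17.4%) and mPTCL 9 at 162 (17.8%). Measured against the median of the other 8 lymphomas in place of the normal cells, 404 peaks were at least 2-fold higher in mPTCL 1 (6.51% of all peaks), 735 in mPTCL 2 (12.2%) and 660 in mPTCL 5 (8.49%). By this measure mPTCL 3 had 4 peaks (6.56%), mPTCL 4 had 6 (5.34%), mPTCL 6 had 5 (6.17%), mPTCL 7 had 0 (6.03%), mPTCL 8 had 83 (10.7%) and mPTCL 9 had 63 (8.9%). Since the interval was chosen for its level in lymphomas, these shares say only how evenly that level was spread over its deposited peaks. Places without a deposited peak do not enter them, and the rule that called the peaks is not known here.

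The edges of the higher stretch differed between the 3 lymphomas. They were taken as the interval of bins of 5 consecutive peaks that holds the Mcl1 promoter and best separates, by least squares, the log2 ratio to the normal mean inside it from that on the rest of the chromosome. In mPTCL 1 the interval ran from 95394436 to 96013057, a length of 618.6 kb, with a mean of 2.36 inside and -0.12 outside. Its left edge lay in an intron of 4930558C23Rik, between Setdb1 and Arnt, and its right edge in an intron of Vps45. The bin just inside the left edge stood at 2.21 and the bin just outside at 0.82. At the right edge the last 3 bins inside stood at 2.85, 1.89 and 1.15, and the first bin outside, which starts at 96018463, stood at -0.31. Vps45, a trafficking gene of the Sec1 family whose 29 peaks lie across this edge, stood at 0.81 as a gene.

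In mPTCL 2 the interval ran from 94888394 to 96489572, 1601 kb, with a mean of 2.39 inside and -0.10 outside. Its right edge was steep, with the last bin inside at 1.37 and the first bin outside, from 96497590, at -0.97. Its left edge was gradual. Split once where the fit improved most, a step added after the values were seen, the interval of mPTCL 2 stood at 1.29 left of 95031875 and at 2.45 right of it. In mPTCL 5 the interval ran from 94960108, in the 3' UTR of Rfx5, to 97585740, in an intron of Chd1l, 2626 kb in all, and stood at 2.20 above the rest of the chromosome. The bin just inside the left edge stood at 2.37 and the bin just outside at 0.43. Right of the upper limit of the block the level of mPTCL 5 was lower but still above the normal mean, at 0.70 to 1.94 in the 5 windows of 100 kb from 96500000 on. In the same windows mPTCL 1 stood at -0.18 to 0.86 and mPTCL 2 at -0.76 to 0.26. The other 6 lymphomas stood at -0.74 to 1.48 there, and part of the level was shared with mPTCL 3, which had 0.22, 0.96, 0.24, 1.48 and 1.25 and was above mPTCL 5 in the window from 96800000. The right edge of mPTCL 5 hangs on 1 bin of 193 kb, from 97393150, at 2.46, since the bins before it stood at 0.60 and 0.91 and the first 3 bins outside at 0.72, 0.78 and 0.69. An edge can be placed no more finely than a bin of 5 peaks, and the bins on either side of the left edges spanned 6.01 to 60.3 kb.

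Bins of chromosome 3 set the background for these intervals. In the other 6 lymphomas the best interval around Mcl1 differed from the rest of the chromosome by -0.46 to 0.67, and in the normal libraries, each against the other 8, by -0.94 to 0.65. The differences were 2.48 in mPTCL 1, 2.49 in mPTCL 2 and 2.20 in mPTCL 5. With NKT libraries alone as the reference and the intervals fitted anew, they were 2.92, 3.10 and 2.71. By that reference mPTCL 3, 4, 6, 7, 8 and 9 stood at 0.33, 0.96, 1.09, 0.94, 1.15 and 0.91, so their range depends on the normal group used. Against the median of the other 8 lymphomas, a comparison added after the values were seen, mPTCL 1 had the same edges, mPTCL 2 ran from 94960108 to 96438075 and mPTCL 5 from 94960108 to 98354199. By that measure mPTCL 2 and mPTCL 5 thus began in the same bin, at Rfx5. The stretch inside all 3 intervals was that of mPTCL 1. It held 425 peaks, 74 of them at promoters, and 34 gene symbols, from 4930558C23Rik through Arnt, Ctsk, Ctss, Hormad1, Golph3l, Ensa, Mcl1, Adamtsl4, Ecm1, Tars2, Rprd2, Prpf3 and Plekho1 to Vps45. Over these 425 peaks the level was 2.44 in mPTCL 1, 2.29 in mPTCL 2 and 1.95 in mPTCL 5. Left of them, 229 block peaks stood at 0.65 in mPTCL 1, 2.03 in mPTCL 2 and 2.24 in mPTCL 5, and the 127 to their right at 0.21, 2.08 and 1.70.

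The level was not flat inside the intervals. The highest window of 100 kb in mPTCL 1 was that from 95500000, at 3.16, which holds Ctss, Hormad1 and the Golph3l promoter. Right of 95682740, just beyond Mcl1 and within Adamtsl4, the interval of mPTCL 1 averaged 1.97, and left of it 2.76. In mPTCL 5 the best split lay at the Golph3l promoter peak, with 2.33 to its left and 1.71 to its right. Among the 16 windows of the block, mPTCL 2 ranged from 1.16 to 2.87 and mPTCL 5 from 1.38 to 2.68, and all 16 were at least 2-fold above the normal mean in both. In mPTCL 1, 7 of the 16 were. Of the 10 windows beside the block, which hold fewer peaks, 0 were in mPTCL 1, 1 in mPTCL 2 and 6 in mPTCL 5. In the other lymphomas 1 to 3 of these 10 were.

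**Figure D3:**
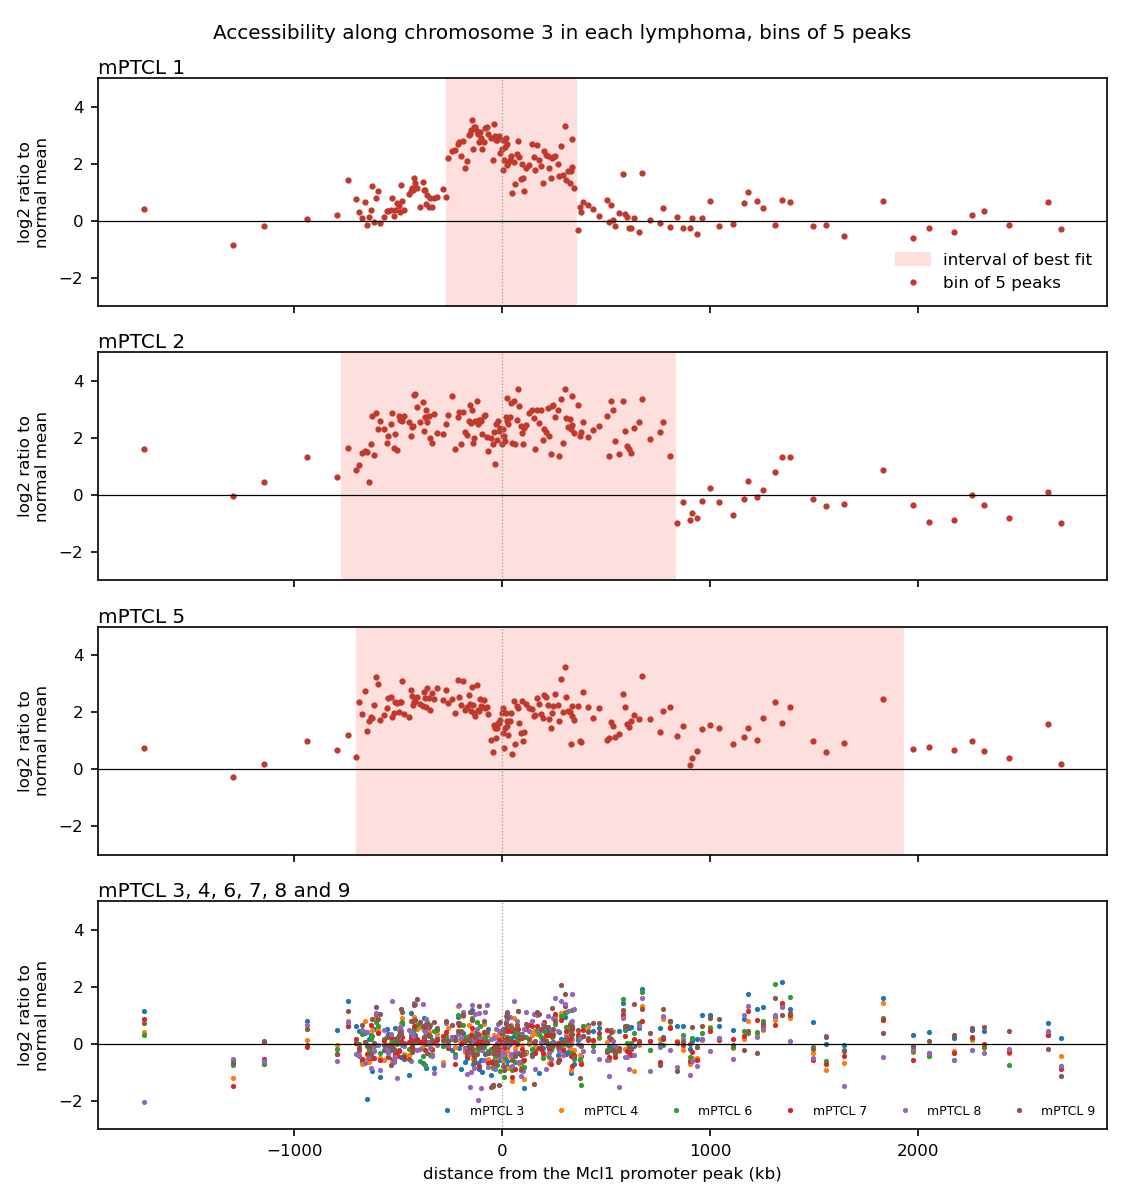
Log2 ratio of summed CPM to the mean of the 9 normal libraries (vertical axis) in bins of 5 consecutive peaks against the distance from the Mcl1 promoter peak in kb, with the interval of best fit shaded for mPTCL 1, mPTCL 2 and mPTCL 5. The shaded means are 2.36 in mPTCL 1 and 2.39 in mPTCL 2, and mPTCL 5 keeps values above 0 to the right of the other intervals, where other lymphomas, mPTCL 3 among them, also have bins above 1.

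Mcl1 itself carried 17 peaks. Summed over them it had 697, 520, 137, 118, 457, 126, 128, 120 and 134 CPM in mPTCL 1 to 9. It had 108, 178 and 129 CPM in T libraries, 96.9, 123 and 123 CPM in NKT libraries, and 137, 74.1 and 99.8 CPM in NK libraries. mPTCL 1, mPTCL 2 and mPTCL 5 lay above every normal library, and the other 6 lymphomas lay inside the normal range. As a log2 difference from the normal mean (0.5 CPM added), Mcl1 stood at 2.59 in mPTCL 1, 2.17 in mPTCL 2 and 1.98 in mPTCL 5, and between 0.03 and 0.25 in the others. At its main promoter peak, 95658562 to 95659062, the lymphomas had 257, 122, 62.8, 46.3, 171, 41.9, 44.1, 20.9 and 60.7 CPM. T libraries had 25.6, 55.3 and 42.0 CPM there, NKT libraries 56.1, 53.8 and 53.0 CPM, and NK libraries 41.5, 21.2 and 19.0 CPM.

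The higher level over Mcl1 covered the gene's flanks as well as its start. All 17 Mcl1 peaks were at least 2-fold above the normal mean of log2 CPM in mPTCL 1 and in mPTCL 2, and 16 of 17 in mPTCL 5. Their values ran from 1.58 to 3.5 in mPTCL 1, 1.63 to 3.57 in mPTCL 2 and 0.64 to 2.65 in mPTCL 5, with medians of 2.49, 2.71 and 2.15. In the other 6 lymphomas 1 to 6 of the 17 peaks passed this fold, with 6 in mPTCL 8, the shallowest lymphoma library. The share of all peaks past this fold was not computed for the mean of log2 CPM. For the mean CPM it was 16.1% in mPTCL 1, 22.3% in mPTCL 2, 22.1% in mPTCL 5 and 16.5% to 19.4% in the others. No rise at Mcl1 is therefore read from the counts of the other 6 lymphomas. The main promoter peak stood at 2.74 in mPTCL 1, 1.67 in mPTCL 2 and 2.15 in mPTCL 5, and the flanking peak at 95667828 to 95668328, downstream of the gene, at 3.5, 3.47 and 2.30.

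The other genes listed under apoptosis and cell survival, Bnipl, Tnfaip8l2 and Mllt11, lie left of the interval of mPTCL 1. Bnipl, which encodes a BNIP2-like protein, stood at 1.76 in mPTCL 1, 4.20 in mPTCL 2 and 3.45 in mPTCL 5, but with 0 to 33.9 CPM in the normal libraries it rests on few counts. It was also at 0.87, 1.40, 1.37, 0.91, 2.15 and 2.30 in mPTCL 3, 4, 6, 7, 8 and 9, so its level was not limited to the lymphomas with a higher block. Tnfaip8l2, an inhibitor of T-cell and innate activation also called TIPE2, stood at 0.42, 1.94 and 2.44 in these 3 lymphomas. Mllt11, a fusion partner of MLL, stood at 1.0, 2.51 and 2.24. The median of the 4 genes of this list, Mcl1 among them, was 1.38 in mPTCL 1, 2.34 in mPTCL 2 and 2.34 in mPTCL 5. Medians over all 108 symbols were 0.96, 2.48 and 2.33.

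Of 12 listed chromatin and transcription regulators, 9 had a peak in the block. Setdb1 had 73.5, 217, 35.5, 49.0, 266, 51.3, 44.4, 30.7 and 61.6 CPM in mPTCL 1 to 9. Its values were 36.2, 39.8 and 35 CPM in T libraries, 26.4, 24.1 and 30.3 CPM in NKT libraries, and 49.7, 65.6 and 57.0 CPM in NK libraries. mPTCL 2 and mPTCL 5 were far above the normal range and mPTCL 1 was just above it, although the gene lies outside the interval of mPTCL 1. Arnt, on the other side of that edge, had 862, 645, 161, 170, 775, 159, 128, 137 and 164 CPM in the lymphomas. T libraries had 150, 138 and 134 CPM at Arnt, NKT libraries 82.5, 115 and 117 CPM, and NK libraries 182, 201 and 179 CPM. Here mPTCL 1 was the highest of all 18 libraries. As log2 differences from the normal mean, Setdb1 stood at 0.93 in mPTCL 1, 2.48 in mPTCL 2 and 2.78 in mPTCL 5, and Arnt at 2.62, 2.20 and 2.47.

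The other 7 regulators did not all go with the intervals. Gabpb2, a subunit of the GABP factor, stood at 1.20 in mPTCL 1, 2.64 in mPTCL 2 and 2.78 in mPTCL 5, and Vps72, which loads the histone variant H2A.Z, at 0.28, 2.09 and 2.35. Rprd2, a regulator of RNA polymerase II, lies inside all 3 intervals and stood at 1.96, 2.18 and 2.03. Ciart, a repressor of the circadian clock, stood at 2.16, 2.32 and 2.13, and the meiotic gene Hormad1 at 3.56, 3.11 and 2.77. Rfx5, a factor for MHC class II genes, lies near the left limit, inside the interval of mPTCL 2, and stood at 0.81, 0.92 and 0.65. The zinc-finger gene Zfp687 stood at 0.04 in mPTCL 1, 0.50 in mPTCL 2 and 1.65 in mPTCL 5, and among the 9 lymphomas was over 2-fold higher only in mPTCL 5, although it lies inside the interval of mPTCL 2 as well. The median of the 9 regulators was 1.20 in mPTCL 1, 2.20 in mPTCL 2 and 2.35 in mPTCL 5.

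Among listed genes of the proteasome and of proteolysis, 5 had a peak in the block. Their median was 2.58 in mPTCL 1, 2.48 in mPTCL 2 and 2.19 in mPTCL 5. Ctss, a lysosomal protease gene, whose product trims the invariant chain of MHC class II, had 849, 552, 74.2, 83.2, 438, 97.5, 80.0, 102 and 103 CPM in mPTCL 1 to 9. T libraries had 88.4, 82.2 and 54.6 CPM, NKT libraries 89.7, 58.8 and 64.0 CPM, and NK libraries 93.3, 110 and 195 CPM. mPTCL 1, mPTCL 2 and mPTCL 5 did not overlap the normal libraries, at log2 differences of 3.29, 2.67 and 2.33, and the other 6 did. Ctsk, the collagen-degrading cathepsin of osteoclasts, stood at 3.36 in mPTCL 1, 2.96 in mPTCL 2 and 2.45 in mPTCL 5, and Adamtsl4, a matrix gene next to Mcl1, at 2.58, 2.48 and 1.63. Psmd4, which encodes a ubiquitin receptor of the proteasome, lies far to the left and stood at 0.28, 1.79 and 2.19. Otud7b, a deubiquitinase gene right of the interval of mPTCL 1, stood at 0.36, 2.32 and 1.87.

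Of 8 listed genes of RNA processing and translation, 6 had a peak in the block. Their medians were 1.14 in mPTCL 1, 2.13 in mPTCL 2 and 1.92 in mPTCL 5. Prpf3, a splicing factor gene, stood at 1.83, 2.30 and 1.97 in these lymphomas, Tars2, a mitochondrial threonyl-tRNA synthetase gene, at 1.84, 2.37 and 1.88, and the mitochondrial ribosomal gene Mrps21 at 2.33, 2.32 and 2.70. Sf3b4, a subunit gene of the splicing factor SF3B, stood at -0.04 in mPTCL 1, 1.41 in mPTCL 2 and 1.15 in mPTCL 5. Terc, the RNA template of telomerase, had 12.3, 55.5, 29.7, 17.5, 32.1, 14.6, 8.89, 11.1 and 10.3 CPM in the lymphomas. Its range in the normal libraries was 4.23 to 27.2 CPM, so that mPTCL 2, mPTCL 3 and mPTCL 5 lay above it. Scnm1, a minor-intron splicing gene, stood at 0.46, 1.96 and 2.75 in mPTCL 1, mPTCL 2 and mPTCL 5.

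Of 12 listed genes of lipids, membranes and traffic, 11 had a peak in the block. Their medians were 0.85 in mPTCL 1, 2.48 in mPTCL 2 and 2.02 in mPTCL 5. Ensa, an inhibitor of the mitotic phosphatase PP2A when phosphorylated, had 1470, 494, 201, 119, 509, 134, 121, 128 and 159 CPM in mPTCL 1 to 9. T libraries had 164, 137 and 164 CPM, NKT libraries 235, 197 and 184 CPM, and NK libraries 292, 157 and 151 CPM. mPTCL 1 held about 3 times the level of mPTCL 2 or mPTCL 5 at Ensa, with log2 differences of 3.01, 1.44 and 1.48 in the 3 lymphomas. Golph3l, a Golgi protein gene, stood at 3.09 in mPTCL 1, 1.81 in mPTCL 2 and 1.83 in mPTCL 5. Cers2, which encodes a ceramide synthase for very long acyl chains, stood at 0.52, 1.69 and 2.22, Pi4kb, a Golgi phosphatidylinositol kinase gene, at 0.26, 1.29 and 2.36, and Sv2a, a synaptic vesicle gene, at 0.58, 3.49 and 1.70. Left of the interval of mPTCL 1, Pip5k1a stood at 0.41, 2.23 and 2.3, the annexin gene Anxa9 at 0.85, 3.02 and 2.84 and the phosphatase gene Prune1 at 1.07, 2.62 and 2.68. Plekho1, which encodes a PH-domain protein and lies inside all 3 intervals, stood at 2.14, 2.85 and 1.92. The myotubularin-related gene Mtmr11 stood at 2.03, 3.82 and 1.75 and Vps45 at 0.81, 2.48 and 2.02.

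Of 7 listed immune genes, 4 had a peak in the block, with medians of 1.58 in mPTCL 1, 2.97 in mPTCL 2 and 2.24 in mPTCL 5. Ecm1, which acts in the exit of helper T cells from lymph nodes, stood at 2.74 in mPTCL 1, 3.48 in mPTCL 2 and 2.16 in mPTCL 5. Fcgr1, the high-affinity Fc receptor of macrophages, stood at -0.16, 3.28 and 1.96, with 2.34 to 36.4 CPM in the normal libraries. The 10 histone symbols near the right limit had medians of 0.46 in mPTCL 1, 1.63 in mPTCL 2 and 1.75 in mPTCL 5, and of 0.85, 0.26, 0.06, 0.02, -0.82 and 0.41 in mPTCL 3, 4, 6, 7, 8 and 9. At least 2-fold above the normal mean were 2 of the 10 in mPTCL 1, 9 in mPTCL 2 and 10 in mPTCL 5, but also 4 each in mPTCL 3 and mPTCL 9. Their values ran from -0.94 to 1.75 in mPTCL 1, 0.59 to 3.29 in mPTCL 2 and 1.3 to 3.04 in mPTCL 5. Hist2h4, which encodes histone H4, stood at 0.02, 1.72 and 1.55. Histone genes of a cluster are near-identical copies and share peaks here, so reads can be split between them and their values are uncertain. By place, all 32 symbols wholly inside the interval of mPTCL 1 were at least 2-fold above the normal mean in that lymphoma (median 2.60), against 10 of 31 to its left (median 0.85) and 10 of 43 to its right (median 0.49). In mPTCL 2, 99 of the 108 symbols were, and in mPTCL 5 all 105 wholly inside its interval. Each interval was fitted to the same ratios to the normal mean, so these counts by place describe the fit and are no separate result. Of all single peaks, 16.1% in mPTCL 1, 22.3% in mPTCL 2 and 22.1% in mPTCL 5 were at least 2-fold higher. The share over all genes was not computed.

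**Figure D4:**
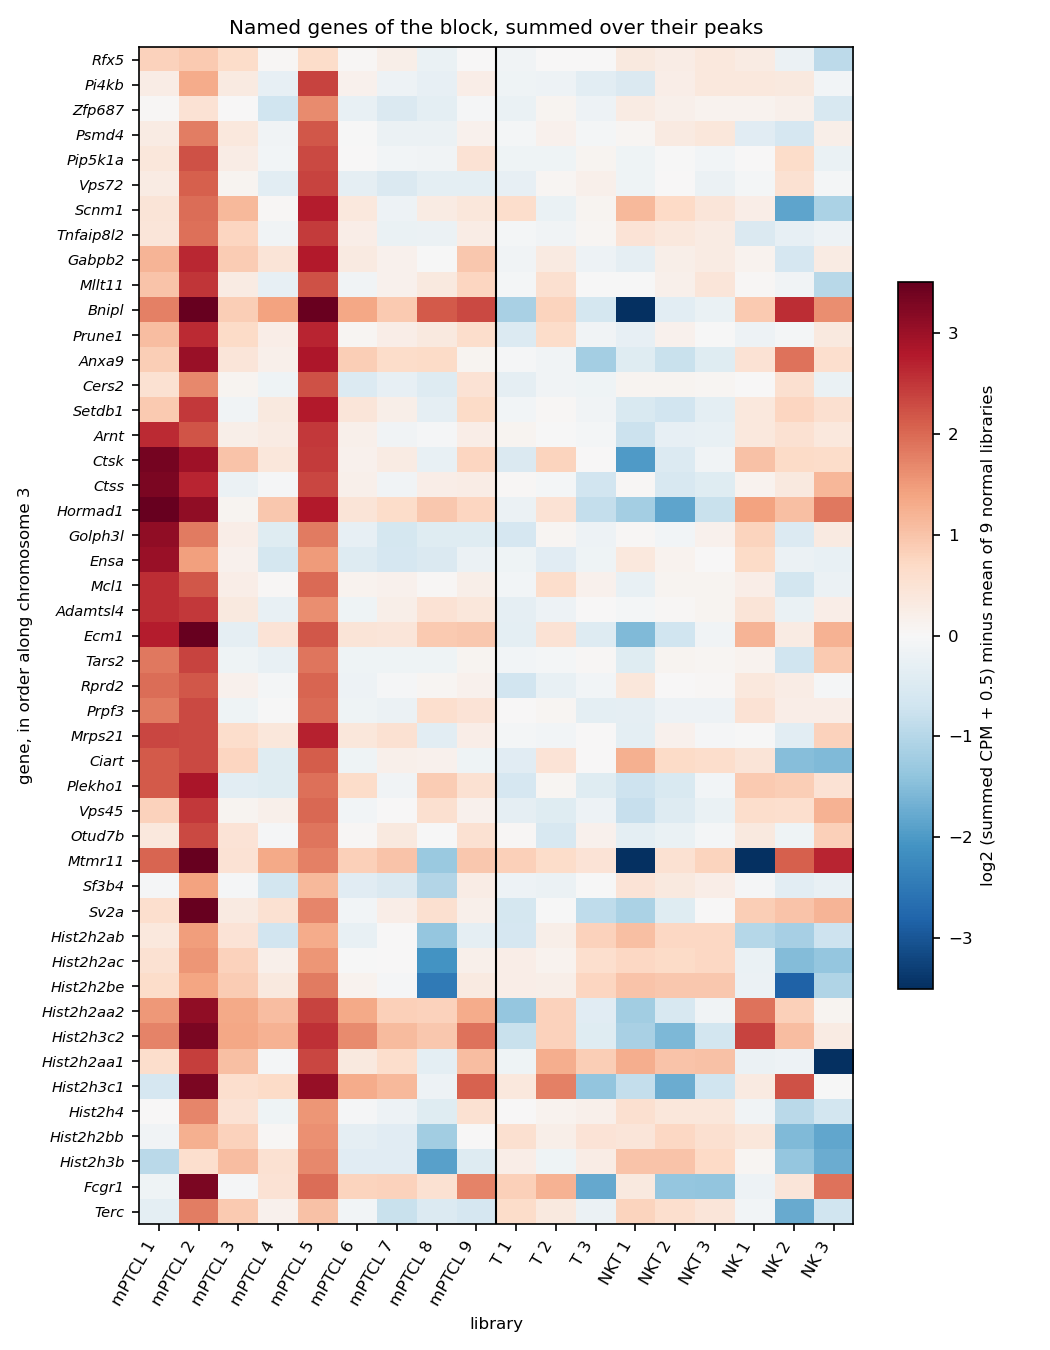
Log2 of summed CPM plus 0.5, minus the mean of the 9 normal libraries, for the named genes of the block (rows, in order along the chromosome) in each library (columns, with the lymphomas left of the line). Colours are capped at both ends of the scale. mPTCL 2 and mPTCL 5 are red down nearly the whole column and mPTCL 1 chiefly from Arnt to Plekho1.

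Promoter peaks and peaks of other classes were both higher in the 3 lymphomas, by unequal amounts. Over the block, promoter peaks stood at 1.5 in mPTCL 1, 1.75 in mPTCL 2 and 1.99 in mPTCL 5. Peaks of other classes stood at 1.97, 2.58 and 2.1. Promoters minus other classes thus came to -0.48 in mPTCL 1, -0.83 in mPTCL 2 and -0.12 in mPTCL 5. Lymphomas 3, 4, 6, 7, 8 and 9 had differences of 0.38, -0.24, -0.25, -0.35, -0.63 and -0.26. A gap in this direction was not particular to the block. Over all peaks outside it, promoters minus other classes came to -0.33 in mPTCL 1, -0.71 in mPTCL 2 and -0.39 in mPTCL 5. Within each lymphoma's own interval, 74 promoter and 351 other peaks in mPTCL 1 stood at 2.37 and 2.56. In mPTCL 2, 184 and 596 peaks stood at 1.75 and 2.59, and in mPTCL 5, 209 and 661 peaks at 1.85 and 2.0.

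In mPTCL 1, mPTCL 2 and mPTCL 5 the gap was smaller within either range of counts than over the whole block. A mean count of at least 20 was reached by 76 of the 184 promoter peaks and by 72 of the 597 other peaks. Among block peaks with a mean count under 20, promoters minus other classes came to -0.27 in mPTCL 1, -0.03 in mPTCL 2 and 0.02 in mPTCL 5. Among those with a mean count of at least 20 it came to -0.37, -0.44 and -0.03. Promoters and other classes thus stood within 0.03 of each other in mPTCL 5 in both ranges, and among the weaker peaks of mPTCL 2. By class, exonic peaks stood at 2.09 in mPTCL 1, 2.86 in mPTCL 2 and 2.43 in mPTCL 5, intronic peaks at 1.87, 2.68 and 2.11, 3' UTR peaks at 1.82, 2.72 and 2.09, flanking peaks at 2.26, 2.39 and 2.08, and intergenic peaks at 1.66, 2.39 and 1.91. No class stayed at the normal level in any of the 3. The normal groups were themselves unlike, with 0.45 to 0.80 in NKT and -1.09 to -0.48 in NK libraries, so the difference depends on the normal group it is set against.

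**Figure D5:**
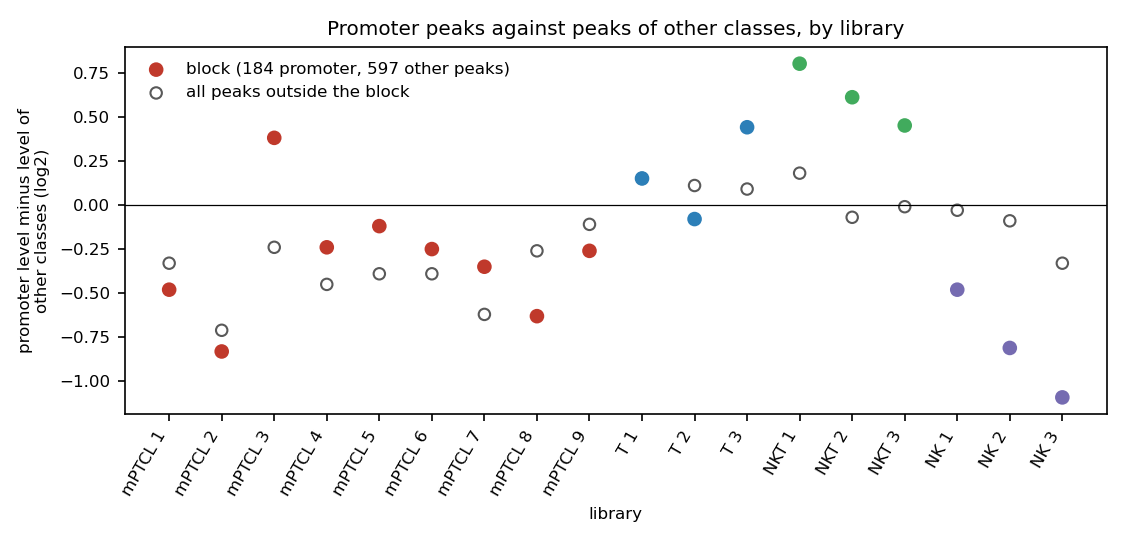
Level of promoter peaks minus level of peaks of other classes (log2, vertical axis) in each library, inside the block (filled, coloured by group) and over all peaks outside it (open). In the block mPTCL 1, mPTCL 2 and mPTCL 5 sit at -0.48, -0.83 and -0.12, and outside it at -0.33, -0.71 and -0.39.

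The promoter peaks with the most counts were not all high in the same lymphomas. The Ensa promoter peak at 95624922 to 95625422, the highest of the block by mean CPM over all 18 libraries, had 1030 CPM in mPTCL 1, 253 in mPTCL 2 and 373 in mPTCL 5, and 59.9 to 170 CPM in the other lymphomas. It had 127, 110 and 143 CPM in T, 219, 175 and 155 CPM in NKT, and 184, 80.4 and 46.0 CPM in NK libraries. The Golph3l promoter peak at 95588653 to 95589153 had 677 CPM in mPTCL 1, 204 in mPTCL 2 and 315 in mPTCL 5, and 27.5 to 119 CPM in the normal libraries. The promoter peak shared by Zfp687 and 4930481B07Rik, at 95015206 to 95015706, had 109 CPM in mPTCL 1, 129 in mPTCL 2 and 366 in mPTCL 5. Its range in the normal libraries was 71.3 to 193 CPM, so only mPTCL 5 was above it, although the peak lies inside the interval of mPTCL 2. In the normal libraries this peak, with a mean log2 CPM of 7.04, stood above the Ensa peak at 6.99 and the Golph3l peak at 6.28, so the order over all libraries rests on the lymphomas.

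At the ends of the range, the mean log2 CPM of all 9 lymphomas exceeded that of the normal libraries most at an exonic peak of Gm24830 at 96328537 to 96329037. It had 28.9, 50.4, 22.5, 15.9, 87.8, 26.8, 4.44, 11.1 and 3.74 CPM in mPTCL 1 to 9 and 0 to 4.23 CPM in the normal libraries, so mPTCL 9 overlapped them. A promoter peak of Gm20632 at 96237968 to 96238468 followed with a log2 difference of 2.94, and a flanking peak of Gm20940 at 95959164 to 95959664 at 2.75. A flanking peak of the histone genes Hist2h3c2 and Hist2h2aa2 at 96237299 to 96237799 stood at 2.58, and a promoter peak of Gm24830 at 96327978 to 96328478 at 2.52. The lowest was an intronic peak of Lysmd1 at 95135518 to 95136018, at -0.73, with 77.1 CPM in mPTCL 2 and 52.8 in mPTCL 5, and 11.2 to 52.5 CPM in the normal libraries. Next came a Cers2 promoter peak at 95317455 to 95317955 (-0.46), an intronic Vps45 peak at 96040502 to 96041002 (-0.40), a 3' UTR peak of Ensa at 95630694 to 95631194 (-0.39) and an intergenic peak at 95707443 to 95707943 (-0.34). The Cers2 peak had 71.7 CPM in mPTCL 5 but 4.90 in mPTCL 1 and 11.5 in mPTCL 2.

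Just inside the left limit, the peaks at 94902590 and 94915811 stood at 1.42 and 1.96 in mPTCL 1, 1.77 and 2.50 in mPTCL 2, and 2.05 and 0.46 in mPTCL 5. Just outside it, the Psmb4 peaks at 94888394 and 94886609 stood at 0.63 and 0.41 in mPTCL 1, 2.01 and 1.12 in mPTCL 2, and 1.73 and 1.37 in mPTCL 5. The other 6 lymphomas were also high at some of these, at -0.01 to 1.84 and -0.62 to 1.62 inside the limit, and at 1.32 to 2.80 and -0.88 to 0.98 outside it. Just inside the right limit, the peaks at 96497590 and 96499437 stood at 0.68 and 0.33 in mPTCL 1, 0.38 and -0.24 in mPTCL 2, and 1.92 and 1.67 in mPTCL 5. Just outside it, those at 96500073 and 96500663 stood at 0.32 and 0.73 in mPTCL 1, -1.32 and -0.27 in mPTCL 2, and 1.11 and 1.68 in mPTCL 5. In the other 6 lymphomas these 4 peaks stood at -0.04 to 1.30, -1.91 to 0.57, -1.20 to 0.86 and -0.88 to 1.23. In mPTCL 5 the peaks on both sides of the right limit were thus all over 2-fold above the normal mean.

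Taken as a group of 9, the lymphomas were compared with each normal group in an edgeR quasi-likelihood fit of all 18 libraries. The comparison was among the values that chose the interval, so its calls (adjusted p below 0.05) are only counted. Against NKT cells, 477 of the 781 block peaks were higher and 4 lower, where 23.2% of all 61220 peaks tested were higher. Against T cells, 99 were higher and 2 lower, with 8.27% of all peaks higher, and against NK cells 40 were called, all of them higher, with 6.03% higher. The median log2 fold change over the block was 2.70 against NKT, 1.65 against T and 0.72 against NK cells, beside medians of 0.27, 0.26 and 0.30 over all peaks. These group values mix the 3 high lymphomas with 6 that were not, and they turn on single libraries. Without mPTCL 5, 297 block peaks were called against NKT cells, 139 without NKT 2, and 288 when NKT 3 was left out. Against T cells the number was 66 without mPTCL 2, 58 without mPTCL 5, and 29, 51 and 22 without T 1, T 2 and T 3. Against NK cells it was 63 without mPTCL 8, 10 without NK 2 and 14 without NK 3.

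Whether the block also differs among normal lymphocytes was tested in the 9 normal libraries alone, which mPTCL values do not enter. The block level averaged 0.13 ± 0.10 in NK, 0.00 ± 0.07 in NKT and -0.13 ± 0.12 in T cells (SD, n = 3 each). NK minus T was 0.27 (exact permutation test, two-sided, p = 0.1, adjusted p = 0.2 over 3 comparisons), NK minus NKT 0.13 (exact p = 0.2, adjusted p = 0.2) and NKT minus T 0.14 (exact p = 0.2, adjusted p = 0.2). With 3 libraries against 3, the smallest p this test allows is 0.1, and since the labels name no animal for any library, a p-value here reflects variation among libraries that may be technical. The sign of NKT minus T turned round with other scalings, to -0.07 under RLE and -0.04 under library totals, which also took NK minus T to 0.56 and 0.51 and NK minus NKT to 0.62 and 0.55. These scalings of the normal levels were added after the values were seen.

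Single peaks of the block differed between normal groups. Of the 781 peaks, 129 passed the filter on low counts in the fit of the 9 normal libraries. Between NK and T cells, 5 of these were higher and 10 lower in NK cells (11.6% of the 129), where 10.2% of all 38218 peaks tested were called. Between NK and NKT cells, 19 were higher and 25 lower in NK cells (34.1%), with 17.5% of all peaks called. Between NKT and T cells, 7 were higher and 3 lower in NKT cells (7.75%), with 15.3% of all peaks called. The balance of directions depended on the fit. For NK against NKT cells it turned to 107 higher and 42 lower without a filter, 219 and 24 with DESeq2, 124 and 24 with all 18 libraries in the fit, and 51 and 22 without NK 2. It also turned without NK 1, NK 3, NKT 1 or NKT 3, with 52 and 42, 40 and 19, 63 and 28, and 35 and 20. For NK against T cells it turned to 30 higher and 10 lower with DESeq2, 8 and 3 with all 18 libraries, 11 and 4 without NK 2, 4 and 3 without NK 3, and 6 and 5 without T 2. For NKT against T cells it turned to 7 higher and 16 lower with DESeq2. No direction over the block is therefore read from these counts. The median count per block peak was 2 in each NK library and in T 1 and 0 in NKT 1, and single libraries moved these counts. For NK against T cells 38 peaks were called without NK 1, 7 without NK 3, 8 without T 1 and 7 without T 3. For NK against NKT cells it was 94 without NK 1, 73 without NK 2 and 91 without NKT 1, and for NKT against T cells 5 without NKT 2, 4 without NKT 3 and 6 without T 2.

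The peaks with the largest called changes were weak ones. Of the 15 calls named here for their size, 5 held in every alternative that tested the peak, and the smaller table was not among these. The intronic 4930558C23Rik peak and the Gm16740, Lysmd1 and Ctss peaks passed the filter on low counts through NK libraries alone. The Pip5k1a peak passed it through NKT libraries, and the flanking Mcl1 peak named below through T libraries. The peaks at 95697545 and 95385577, also named below, would not have passed it without the NKT libraries. Each time this was the group in which the peak is highest, so these adjusted p-values are a description and no test of that direction. An intronic peak of 4930558C23Rik at 95395547 to 95396047 had 8.29, 8.47 and 9.51 CPM in NK cells against 0 in all T libraries. NK cells were at least 12.5-fold higher there, taking a floor of 3 counts over the T group (adjusted p = 0.00696, edgeR). Against 2 counts in NKT cells the ratio was 66.8 (95% counting interval 15.4 to 606). An intronic peak of Pip5k1a, a phosphatidylinositol kinase gene, at 95100705 to 95101205 had 0 counts in all NK libraries, against 7.45, 7.78 and 5.14 CPM in T libraries and 9.61 to 20 CPM in NKT libraries. It was at least 3.37-fold lower in NK than in T cells (adjusted p = 0.0379, edgeR) and at least 9.81-fold lower than in NKT cells (adjusted p = 0.00237). At an intronic Arnt peak from 95450237 to 95450737, with 1 count over the NK group, T cells stood 22.8 times above NK cells (95% counting interval 3.95 to 917). The call at 4930558C23Rik between NK and T cells was lost without T 3 (adjusted p = 0.0738), that at Arnt (adjusted p = 0.0258) without NK 2 (0.0702) or T 1 (0.0605), and that at Pip5k1a without any one of NK 2, NK 3, T 1, T 2 or T 3 (0.0546 to 0.0999). The Pip5k1a call was also lost with the replicate block (0.0657) and at a mean count of at least 20 (0.0505), and the Arnt call with all 18 libraries in one fit (0.0573). The calls of 4930558C23Rik and Pip5k1a between NK and NKT cells held in every alternative that tested the peak. With 14 counts over NK, 2 over NKT and 0 over T libraries, the 4930558C23Rik peak was not tested at a mean count of at least 20. The intervals and floors hold counting error alone, as PCR reads lacking molecular identifiers are not independent molecules.

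Other called peaks had counts in both groups. An exonic peak of Gm16740 at 95226365 to 95226865 was 3.95 ± 1.07 (SE, log2) higher in NK than in T cells (adjusted p = 0.018, edgeR) and 5.69 ± 1.06 higher than in NKT cells (adjusted p = 0.000526). A promoter peak of Lysmd1 at 95132974 to 95133474 was 3.94 ± 1.07 higher in NK than in T cells (adjusted p = 0.0184). An intronic Ctss peak at 95527447 to 95527947 had 12.4, 8.47 and 15.8 CPM in NK cells against 0, 0.152 and 1.10 CPM in NKT cells (4.83 ± 0.98, adjusted p = 0.0012). A promoter peak of the microRNA gene Mir8099-1 at 95140026 to 95140526 was 4.75 ± 1.02 higher in NK than in NKT cells (adjusted p = 0.00183), with 0 counts in NK 2, and -3.55 ± 0.98 in NKT against T cells (adjusted p = 0.0132). The Gm16740 and Lysmd1 calls between NK and T cells were lost without T 1 (adjusted p = 0.119 and 0.12) and without T 2 (0.116 for both), and also without NK 3 (0.0533 and 0.0525), while the Gm16740 call against NKT cells held throughout. The Gm16740 call was lost without NK 2 (0.0646) and the Lysmd1 call without NK 1 (0.0583) or with the replicate block (0.0555). Both were also lost without a filter (0.0729 for Gm16740 and 0.0684 for Lysmd1) and with all 18 libraries in one fit (0.0916 and 0.0589). The Ctss call was lost without NKT 2 (0.0516), and the Mir8099-1 calls without NK 3 (0.136, NK against NKT) and without each of NKT 1, NKT 2, NKT 3, T 1 and T 2 (0.0511 to 0.133, NKT against T) or with all 18 libraries in one fit (0.116, NKT against T).

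Between NKT and T cells, an intergenic peak at 95697545 to 95698045 had 12.8, 21.5 and 14.9 CPM in NKT cells against 1.06, 1.73 and 0 CPM in T cells (95% counting interval of the ratio 8.43 to 121, adjusted p = 0.000918, edgeR). A flanking peak of 4930558C23Rik at 95385577 to 95386077 had 36.8 to 50 CPM in NKT cells against 6.39, 6.05 and 5.60 CPM in T cells (2.73 ± 0.43, adjusted p = 5.74e-05). A promoter peak of BC028528 at 95891731 to 95892231 differed by -3.09 ± 0.97 (adjusted p = 0.0285), a call that was lost without any one of the 6 NKT and T libraries (0.054 to 0.307), without a filter (0.0855), with all 18 libraries (0.155) and with the replicate block (0.0897). The flanking Mcl1 peak at 95665966 to 95666466 had 4.80, 7.13 and 6.71 CPM in NKT cells against 25.6, 29.4 and 17.7 CPM in T cells (-2.07 ± 0.48, adjusted p = 0.00313). The groups did not overlap at this Mcl1 peak. The NK libraries had 4.15, 0 and 3.17 CPM there, a log2 difference from T cells of -2.96 ± 0.75 (adjusted p = 0.0115). It also had the lowest log2 difference of the 17 Mcl1 peaks in mPTCL 1, mPTCL 2 and mPTCL 5, at 1.58, 1.63 and 0.64. The call at this peak between NKT and T cells was lost when all 18 libraries entered one fit (edgeR, adjusted p = 0.0888). Those at 95697545 and 95385577 held in every alternative that tested the peak. Both peaks passed the filter on low counts through NKT libraries, where they are highest, so their adjusted p-values are a description too.

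The rest of the Bcl2 family, which sets the balance of survival and death together with Mcl1, lies outside the block and did not choose it. Of 21 listed genes, 16 were measured. In the gene-level fit against NKT cells, Hrk, a BH3-only killer gene, was 1.68 ± 0.45 higher in mPTCL (adjusted p = 0.00402, edgeR). The survival genes Bcl2 and Bcl2a1d and the family member Bcl2l13 were lower, at -1.33 ± 0.35, -2.28 ± 0.42 and -0.65 ± 0.23 (adjusted p = 0.00405, 0.000172 and 0.0216, edgeR), and the other 12 were not called, where 45.6% of all 20326 genes were called. Against T cells, Hrk (1.48 ± 0.48, adjusted p = 0.0203) and Bik, another BH3-only gene (1.10 ± 0.38, adjusted p = 0.0287), were higher in the same edgeR fit, with 30.9% of all genes called. Bcl2a1d (-1.56 ± 0.45, adjusted p = 0.0112) and Bcl2l14 (-1.06 ± 0.30, adjusted p = 0.0102) were lower than in T cells, and the other 12 were not called. Against NK cells, Bak1, which encodes the effector Bak (1.48 ± 0.48, adjusted p = 0.028), and Bik (3.96 ± 0.68, adjusted p = 0.000202) were higher and the other 14 were not called, with 21.5% of all genes called. The list's median was -0.20 against NKT, -0.11 against T and 0.04 against NK cells, beside 0.06, 0.12 and 0.13 over all genes. These 3 comparisons share the 9 lymphomas, and Bcl2a1d belongs to a family of near-identical copies, so its value is uncertain.

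Lymphoma libraries held 670358 to 4844441 counts in peaks, T libraries 979441 to 2358023, NKT libraries 1433904 to 9097014 and NK libraries 417107 to 596601, and the block held 2176 to 63192 of them. The 3 high lymphomas were neither the deepest nor the shallowest, with 2044776 counts for mPTCL 1, 1422130 for mPTCL 2 and 3327815 for mPTCL 5. The T-cell markers Cd3e, Cd3g, Cd4, Cd8a and Trac summed to 230 to 420 CPM in lymphomas, against 375 to 468 CPM for T, 769 to 822 CPM for NKT and 195 to 265 CPM for NK libraries. Cd3e had 17.7 to 45.9 CPM in lymphomas, 32.9 to 56.5 in T and 0 to 8.29 in NK libraries. Cd3g had 11.2 to 46.1 CPM in lymphomas against 37.3 to 70.5 in T libraries, and Cd4 1.85 to 18.7 against 27.7 to 38.9. Cd8a had 7.63 to 28.9 against 12.8 to 20.6 CPM. Trac, the largest part of the sum, had 152 to 335 CPM in lymphomas and 149 to 252 CPM in NK libraries. NK-cell markers, 3 of 4 with a peak, summed to 65.2 to 134 CPM in lymphomas, against 16.4 to 36 CPM for T, 13.6 to 27.1 CPM for NKT and 60.1 to 147 CPM for NK libraries. Zbtb16, which encodes the NKT-cell factor PLZF, had 2.79 to 32.7 CPM in lymphomas and 67 to 88.1 CPM in NKT libraries. It had 53.9 to 80.4 CPM in NK and 14.9 to 24.2 CPM in T libraries, so it did not set NKT apart from NK cells here. The 2 of 4 myeloid and Kupffer-cell markers that had a peak summed to 22.7 to 65.5 CPM in lymphomas against 7.21 to 38.1 in normal libraries. The 1 of 4 hepatocyte markers with a peak had 13.9 to 72.0 CPM in lymphomas against 3.19 to 47.5 in normal libraries, and the 1 of 4 B-cell markers 21.3 to 80.8 against 8.01 to 78.8 CPM. The part of other cell types in the values of the block was not tested.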

How the data were processed

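ATAC-seq was measured in 18 libraries of 4 groups, and groups were taken from the labels. Per the submitters' processing notes, the tools were MACS2 2.1.2, bedtools and edgeR 3.24.3 on mm10; which made which value is not given in the sources used here. The authors deposited raw counts per peak, with deposited log2 CPM beside them, in a larger table of 61224 peaks, which was used, and in a smaller one. A log2 CPM recomputed from the deposited counts differed from the deposited log2 values by at most 0.0005. The members, gene lists, tests and motifs were chosen with earlier results of these data known.

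Peaks were tested with edgeR 4.0.16 (quasi-likelihood, TMM, filterByExpr, Benjamini-Hochberg, threshold 0.05, R 4.3.3). Lymphoma comparisons used all 18 libraries (61220 peaks tested), and normal groups were compared in a fit of the 9 normal libraries alone (38218 peaks tested). Log2 CPM of peaks had a prior count of 2, gene values 0.5 CPM added and bins 1 CPM added. Gene values are counts summed over the peaks that the deposited annotation gives a symbol. Peaks named between normal groups are the 5 with the largest called change in each comparison, those at the ends the 5 highest and 5 lowest differences, and genes come from lists by role. DESeq2 1.42.0 was an alternative. The fits were tested on simulated data. Replicate numbers of the normal groups did not pair the libraries, so no block was used. Positions are printed unchanged from the files; no source used here says if counting starts at 0 or 1.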

Additional observations from a re-analysis of the deposited data

Results flagged for a closer look

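Sv2a, a synaptic vesicle gene to the right of Mcl1, stood at 3.49 in mPTCL 2 as a log2 difference from the normal mean. The next lymphoma, mPTCL 5, stood at 1.70, a gap of 0.499 of the whole range of the 9 lymphomas, wider than the limit of Dixon's criterion for 9 samples. Of 41 gene and block values screened in this way, this was the 1 that passed, and chance alone passes about 1 in 20. Since the interval was chosen on these lymphoma values, the gap is given as a description and nothing is read from it.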

How the results depend on the processing

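The block levels of the lymphomas held within 0.03 when any 1 normal library was left out: 1.67 to 1.73 in mPTCL 1, 2.13 to 2.19 in mPTCL 2, 0.21 to 0.27 in mPTCL 3, -0.11 to -0.06 in mPTCL 4, 1.98 to 2.04 in mPTCL 5, -0.05 to 0.01 in mPTCL 6, -0.13 to -0.07 in mPTCL 7, -0.03 to 0.03 in mPTCL 8 and 0.20 to 0.25 in mPTCL 9. Under RLE they were 1.82, 2.51 and 2.26 in mPTCL 1, mPTCL 2 and mPTCL 5, and in the smaller deposited set 1.85, 1.93 and 2.30. The interval of mPTCL 1 was 625.4 kb long with bins of 10 peaks, 827.4 kb against NKT libraries alone, 655.2 kb against T libraries alone and 826.6 kb in the smaller table. That of mPTCL 2 was 1419, 1460, 1601 and 2950 kb and that of mPTCL 5 3501, 2626, 2117 and 3386 kb under the same settings. Against NKT libraries alone, promoters minus other classes moved to -1.1, -1.46, -0.24, -0.87, -0.74, -0.87, -0.97, -1.25 and -0.88 in mPTCL 1 to 9, so that the sign of mPTCL 3 turned round. For mPTCL 2 this difference was -0.33 as a median over peaks and -0.44 at peaks whose mean count reached 20, where mPTCL 8 had -0.27.

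Counts of called block peaks depended more on the settings. For mPTCL against NKT, T and NK cells they were 481, 101 and 40 as reported and ranged from 139 to 579, 22 to 142 and 10 to 63 with 1 library left out. At peaks whose mean count reached 20, 53 and 32 were called against NKT and T cells, and with RLE and DESeq2 154 and 261 against T cells. The smaller table, with 76 block peaks, gave 19, 21 and 26. For NK against T, NK against NKT and NKT against T cells the counts were 15, 44 and 10, with ranges of 7 to 38, 33 to 94 and 4 to 12 with 1 library left out. They were 26, 149 and 18 without a filter, 40, 243 and 23 with DESeq2 and 5, 16 and 4 in the smaller set of peaks. The mean count limit of 20 left 6 for NK against T and 15 for NK against NKT cells, and 1 fit of all 18 libraries called 148 for NK against NKT cells. Samples with the same replicate number did not deviate together (r from -0.0365 to 0.0478), so the numbers were not read as pairing; with the replicate number as a block, 6, 32 and 6 peaks were called. NKT minus T in block level reversed to -0.04 under library totals and -0.07 under RLE. The causes of these shifts were not tested, beyond the smaller number of peaks that a filter or the smaller table leaves. Depth limits single peaks: the median count per block peak was 2 in mPTCL 8, 2 in T 1 and in each NK library, and 0 in NKT 1. The Bcl2-family gene results were not recomputed under other settings.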
